A study of Mus musculus with 2 samples.

Results

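Oligodendrocyte progenitor cells (OPCs) and committed oligodendrocyte precursors (OPC-COP) of the mouse ventral hippocampus were taken as the annotation deposited by the authors names them. These classes hold 131 of the 8477 cells, or 1.55%, of which 28 are OPCs and 103 are OPC-COP, and each class is 1 of the 33 clusters. Per the labels, the cells come from male mice aged 11 to 12 weeks on a mixed C57BL/6J x C57BL/6N background. The study's methods state a slightly wider range of ages for these mice. WT mice carry ADCY2-V151 and mutant mice ADCY2-L151, a valine-to-leucine change in adenylyl cyclase 2, and the study's L151 mice are homozygous, so that all of their cells carry it. The line descends from 1 heterozygous founder, and the template used for gene editing also brought in silent base changes. The study sampled 2 mice of each genotype and dropped 1 of either pair on quality, and 1 library per genotype remains. The WT library holds 5 OPCs and 64 OPC-COP, and the L151 library 23 OPCs and 39 OPC-COP.

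OPCs are dividing glial cells that persist in the adult brain and give rise to oligodendrocytes, the cells that form myelin. On the way they leave the cell cycle and pass through the committed precursor stage. Pdgfra, which encodes a receptor for platelet-derived growth factor, and Cspg4, which encodes the NG2 proteoglycan, mark progenitors. Olig1 encodes a transcription factor of the whole lineage, and Bmp4 encodes a secreted signalling protein that committed precursors make. Adcy2 encodes an enzyme that forms cAMP from ATP. Counts per gene were not analysed here, so the class names were not checked against these markers. The authors report that they named the clusters by known marker genes. What the table gives for each cell is the number of unique molecular identifiers (UMIs, 1 per captured RNA molecule), how many genes were detected, the percentage of UMIs from mitochondrial genes and a doublet score.

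The libraries are of like size, with 4055 cells and 22049587 UMIs in WT and 4422 cells and 22276085 UMIs in L151. The L151 library holds more cells with few genes: 25% of its cells have under 1000 genes (exact 95% interval 23.7 to 26.3%), compared with 19.2% in WT (18.0 to 20.4%). The libraries share 3 cell barcodes, and 0 of them belong to OPCs or OPC-COP. With 1 library per genotype no test between genotypes was made, and genotype, mouse and library preparation cannot be told apart. Cells of 1 library are not replicates, so values of the classes are given side by side, also without a test. Intervals of shares cover counting error only, and intervals of medians only the spread among cells within a library. Neither covers differences between mice. The authors clustered the cells by the expression of the same RNA molecules, so that depth and class are not independent measures.

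To describe how the classes differ, the UMIs of single cells were compared first. OPCs were shallow and OPC-COP were deep. The 5 WT OPCs had 438, 717, 996, 1023 and 1105 UMIs. The 23 L151 OPCs ranged from 582 to 10371 with a median of 873, and the second deepest of them had 1885. WT OPC-COP ranged from 2317 to 12748 UMIs with a median of 8039.5, and L151 OPC-COP from 2336 to 11929 with a median of 7303. In WT the classes did not overlap, and in L151 22 of 23 OPCs lay below the lowest OPC-COP. The median of OPC-COP was 8.07 times that of OPCs in WT and 8.37 times in L151, where the ratio of means was 5.32. Relative to all cells of their library, OPCs had 0.216 (WT) and 0.204 (L151) of the median UMIs, and OPC-COP 1.74 and 1.71.

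The number of genes followed the same order. WT OPCs had 372, 501, 747, 750 and 828 genes. L151 OPCs had between 407 and 3514 genes with a median of 604. All 5 WT OPCs and 21 of 23 L151 OPCs had under 1000 genes. The study kept droplets with at least 320 genes, so that the lowest OPC of each library stands close to this limit. OPC-COP had medians of 3677.5 genes in WT and 3563 in L151, and 0 of 64 and 0 of 39 had under 1000 genes, which allows shares of up to 4.69% and 7.69%. Among the 33 clusters OPC-COP had the second highest median of genes, 3570, although 8 clusters had a higher median of UMIs. OPCs had the fourth lowest, 604.5. UMIs and genes ran together within OPC-COP, with Spearman's rho of 0.98 over 64 WT cells and 0.99 over 39 L151 cells, given here as a description of cells from 1 library each.

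**Figure D1:**
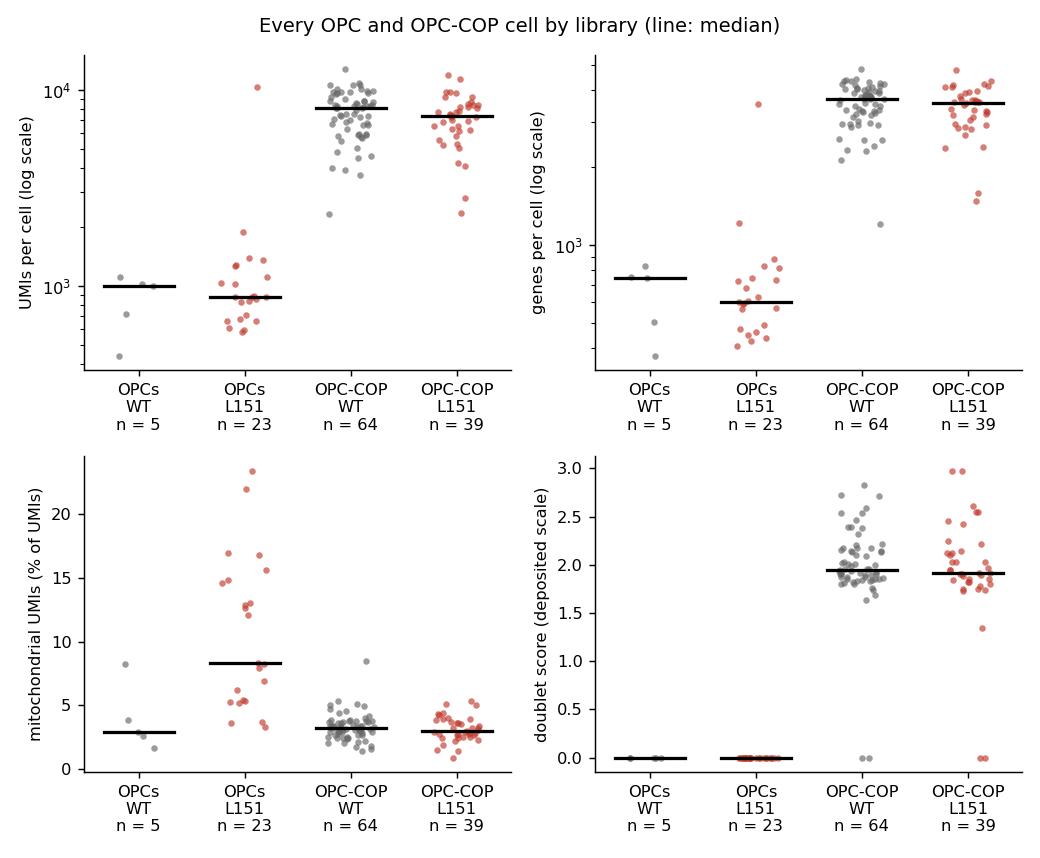
Every OPC and OPC-COP cell, WT in grey and L151 in red, with UMIs and genes per cell on log axes above and mitochondrial percentage and doublet score on linear axes below. Lines mark medians: OPCs lie at 996 and 873 UMIs, OPC-COP at 8039.5 and 7303, and all 28 OPCs have a doublet score of 0.

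Of both classes in both libraries, OPCs of L151 had the highest median mitochondrial content. Among the 33 clusters OPCs of both libraries together ranked 9th, with 8.08%, and the CA3 neuron cluster Neu_CA3_2 had the highest median, 21.4%. The 5 WT OPCs had 1.63, 2.61, 2.93, 3.88 and 8.23% mitochondrial UMIs. L151 OPCs ranged from 3.32 to 23.4% with a median of 8.34%, and each of the 23 lay above the WT median. Of them 11 exceeded 10% (47.8%, exact 95% interval 26.8 to 69.4%), compared with 0 of 5 in WT. The WT count allows a share of up to 60% if taken as 3 cells of the total, and its exact upper limit is 52.2%. OPC-COP were low in both libraries, with a median of 3.19% in WT (quartiles 2.71 and 3.71%) and 2.98% in L151 (2.59 and 3.78%), and 0 of 103 exceeded 10%. In L151, 18 of 23 OPCs had a higher percentage than any OPC-COP of that library, while in WT all 5 lay within the range of OPC-COP. The difference of medians, OPC-COP minus OPCs, was -5.36 percentage points in L151 and 0.26 in WT, and the WT value turned to -0.56 when means replaced medians. With at least 500 genes the differences were -9.49 in L151 and 0.42 in WT, and with at least 1000 UMIs -11.82 and 0.91. With at most 10% mitochondrial content they were -2.41 and 0.26. This last filter acts on the quantity compared. It removes the 11 L151 OPCs above 10% and no other cell of both classes, so that the L151 difference could not grow. Without the deepest L151 OPC the L151 difference was -7.25.

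In absolute numbers the median L151 OPC held 101 mitochondrial UMIs and the median WT OPC 26, compared with 225 and 244 in OPC-COP. Other UMIs had medians of 783 in L151 and 970 in WT OPCs. OPCs were also set beside other cells of like depth, in a window chosen after the values were seen. It leaves out the L151 OPCs of 1885 and 10371 UMIs, which had 5.15 and 5.35% mitochondrial UMIs. The median of all 23 L151 OPCs was 8.34%. Between 400 and 1500 UMIs the 21 L151 OPCs had a median of 12.1% and the other 870 cells of that library, which hold no OPC-COP, 5.43% (quartiles 1.02 and 10.1%). In WT the 5 OPCs had 2.93% and the other 583 cells 6.11% (2.33 and 10.5%). Shallow mature oligodendrocytes in this window had 6.88% in L151 (11 cells) and 9.0% in WT (18 cells). Single cell types lay on either side of OPCs in both libraries. In L151, 7 dentate gyrus neurons (Neu_DG) had a median of 17.7%, above OPCs, and 300 CA1 neurons (Neu_CA1) 0.649%. In WT, 12 dentate gyrus neurons had 11.6%, and 98 CA1 neurons, with 1.47%, lay below OPCs.

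**Figure D2:**
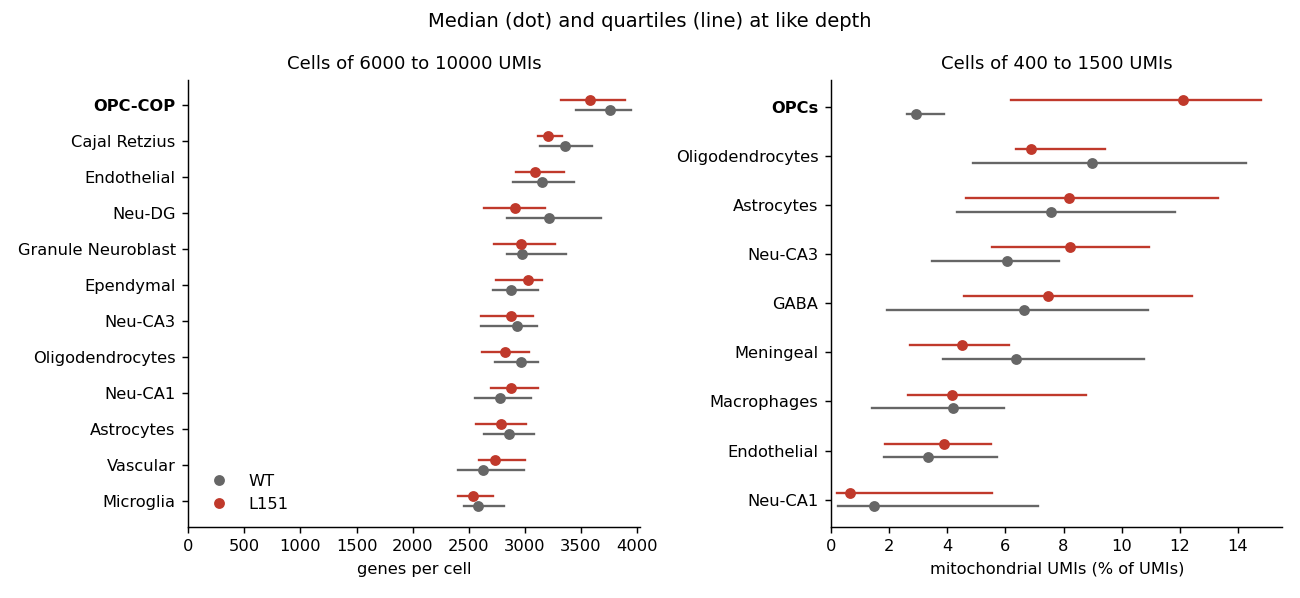
Medians (dots) and quartiles (lines) of WT (grey) and L151 (red) cells of like depth, with genes per cell at 6000 to 10000 UMIs on the left and mitochondrial percentage at 400 to 1500 UMIs on the right. Classes with at least 10 cells of each library in the window are shown, and OPCs in addition with 5 WT and 21 L151 cells. OPC-COP have the highest medians of genes, 3759 and 3579.5, and OPCs have 12.1% mitochondrial UMIs in L151 and 2.93% in WT. Over all 23 L151 OPCs, with those outside the window, the median is 8.34%.

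OPC-COP held more genes for their UMIs than mature oligodendrocytes did. The median was 2.15 UMIs per gene in WT and 2.10 in L151 OPC-COP, compared with 2.89 and 2.76 in the 566 WT and 638 L151 oligodendrocytes. Between 6000 and 8000 UMIs the 15 WT OPC-COP had a median of 3346 genes and 117 oligodendrocytes 2667, a ratio of 1.25. In L151 the 16 OPC-COP had 3340 and 245 oligodendrocytes 2642, a ratio of 1.26. Between 8000 and 10000 UMIs the values were 3905 and 3078 in WT and 3929 and 3068 in L151. In both of these bins, and in both libraries, every OPC-COP cell had more genes than the upper quartile of oligodendrocytes. In all 11 combinations of a 2000-UMI bin and a library that held OPC-COP, their median was the higher one, by a ratio of 1.24 to 1.72, although some bins hold 1 or 2 OPC-COP. Of 12 main cell types with at least 10 cells of each library between 6000 and 10000 UMIs, OPC-COP had the most genes in both, 3759 in WT and 3579.5 in L151. Cajal Retzius neurons, early-born cells that secrete reelin, came next with 3363 and 3210. Depth still differed among the types within this window, and its part in the ranking was not tested. By median UMIs OPC-COP ranked 2nd of the 12 types in WT, with 8288, and 4th in L151, with 7672.5. Cajal Retzius neurons had medians of 8127.5 and 7604 UMIs. The quartiles of both types overlap, at 3454 to 3948 genes in WT OPC-COP and 3136.25 to 3596 in WT Cajal Retzius neurons.

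**Figure D3:**
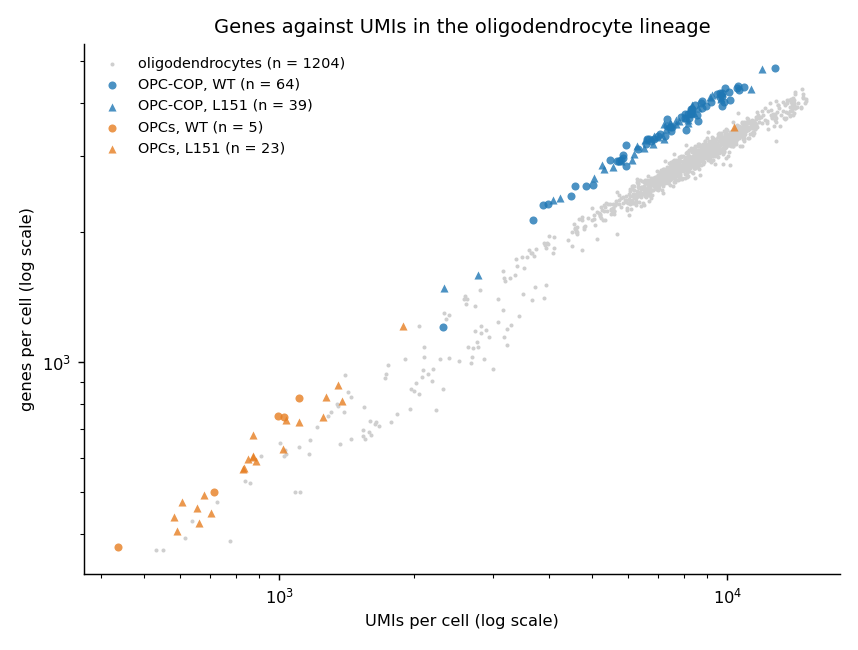
Genes against UMIs per cell on log axes for mature oligodendrocytes (grey dots), OPC-COP (blue) and OPCs (orange), with WT as circles and L151 as triangles. OPC-COP form a band above oligodendrocytes of the same UMIs, with 3346 against 2667 genes between 6000 and 8000 UMIs in WT, and the deepest OPC, with 10371 UMIs and 3514 genes, lies among oligodendrocytes.

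The doublet score, for which the authors' methods name the scran package, is given on a scale that the sources used here do not state. It is the score of cells that the authors kept after removing doublets. All 28 OPCs had a score of 0. OPC-COP had a median of 1.95 in WT and 1.91 in L151, above 86.1% and 85.9% of the cells of their library, and 62 of 64 and 37 of 39 of them had a score over 0. The lowest score above 0 in OPC-COP was 1.35. A score of 0 goes with few genes in the whole table: it was found in 100% of cells with under 500 genes in both libraries, in 80.8% (WT) and 83.4% (L151) of those with 500 to under 1000, and in 1.02% and 0.80% of those with 3000 or more. The 4 OPC-COP with a score of 0 had 1207 and 2571 genes in WT and 1487 and 1590 in L151. At like depth OPC-COP still stood apart from their mature counterparts: between 6000 and 10000 UMIs their median was 1.93 in WT and 1.95 in L151, and that of oligodendrocytes 0.90 and 0.91, the lowest of the 12 types compared. A high score was not particular to OPC-COP, which ranked 4th of these types in WT and 3rd in L151. Ependymal cells had the highest medians, 2.14 and 2.07. The 2 highest OPC-COP scores, 2.98 in L151, equal the maximum of the table, which 50 cells share.

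Next, the number of cells in each class was compared between the libraries. The paper also made this comparison, by binomial and Fisher tests over cells. It reported significantly fewer OPC-COP and significantly more OPCs in L151 than in WT. Here the counts are described without a test. The classes differed in the library that gave most of their cells. Of the 28 OPCs 82.1% came from the L151 library, the highest part among the 33 clusters, and of the 103 OPC-COP 37.9%, the lowest, where L151 cells make up 52.2% of all cells. Astrocytes_5 with 38.3% of 60 cells and Cajal Retzius neurons with 38.5% of 52 were next to OPC-COP. OPCs formed 7.25% of both classes together in WT (5 of 69 cells, exact 95% interval 2.39 to 16.1%) and 37.1% in L151 (23 of 62, 25.2 to 50.3%). With at least 1000 UMIs per cell the values were 3.03% in WT (66 cells) and 18.8% in L151 (48 cells). With at most 10% mitochondrial content they were 7.25% in WT and 23.5% in L151 (51 cells). For 100 mature oligodendrocytes there were 0.88 OPCs and 11.3 OPC-COP in WT and 3.61 OPCs and 6.11 OPC-COP in L151. Mature oligodendrocytes together with both classes made up 15.7% of WT cells and 15.8% of L151 cells, an L151/WT ratio of 1.01 (0.907 to 1.13).

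**Figure D4:**
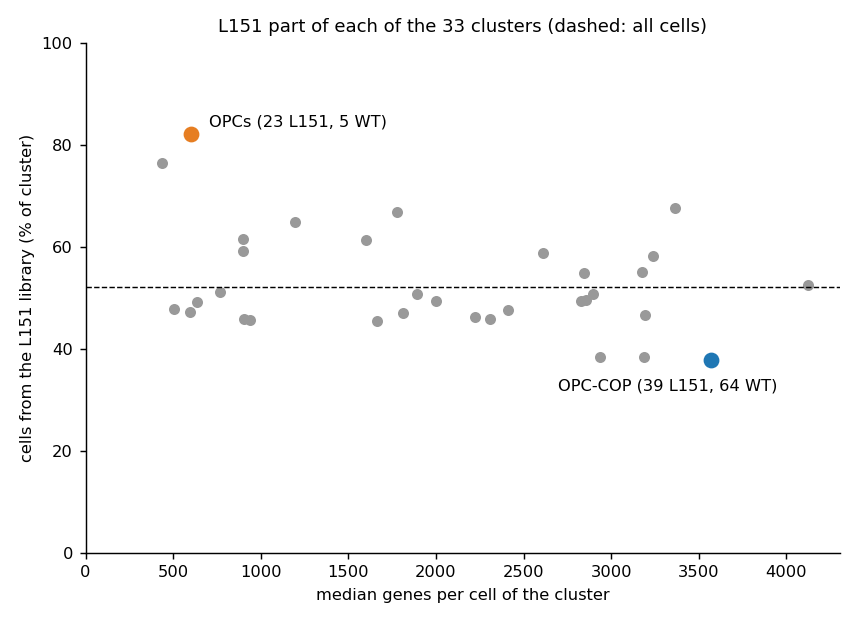
Percentage of each cluster's cells that came from the L151 library against the cluster's median number of genes, with 1 point per cluster and the value over all cells (52.2%) as a dashed line. OPCs lie highest at 82.1% and OPC-COP lowest at 37.9%.

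The shares also moved with depth, and its part in the difference between libraries was not tested. Among cells with under 1000 genes, OPCs were 0.643% in WT (5 of 778, exact 95% interval 0.209 to 1.49%) and 1.90% in L151 (21 of 1104, 1.18 to 2.89%). This is an L151/WT ratio of 2.96 (1.09 to 10.0), beside 4.22 (1.57 to 14.2) over all cells. Over all cells with at most 10% mitochondrial content, which keeps 12 L151 and 5 WT OPCs, the ratio was 2.20. Among cells with at least 1000 genes there were 2 OPCs in L151 and 0 in WT. OPC-COP were 1.95% of WT cells with at least 1000 genes (64 of 3277, 1.51 to 2.49%) and 1.18% of L151 cells (39 of 3318, 0.837 to 1.60%), a ratio of 0.602 (0.393 to 0.910). Within the oligodendrocyte lineage the ratio was 4.17 (1.55 to 14.1) for OPCs and 0.553 (0.361 to 0.836) for OPC-COP. In terms of RNA molecules, OPC-COP contributed 2.22% of the UMIs of the WT library and 1.26% of the L151 library, and OPCs 0.0194% and 0.140%.

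**Figure D5:**
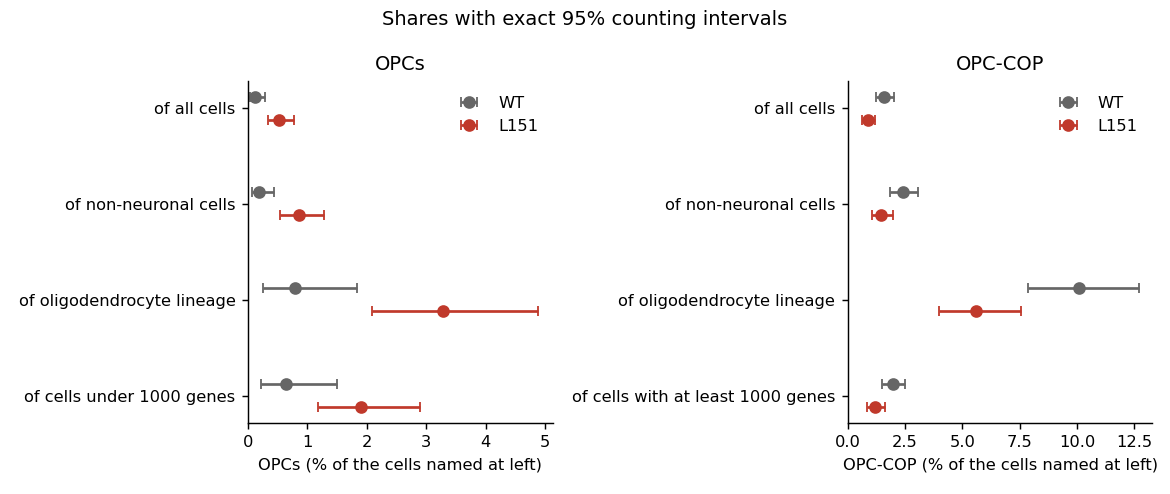
OPCs (left) and OPC-COP (right) as a percentage of several groups of cells by library (WT grey, L151 red), with exact 95% counting intervals as bars. In each comparison OPCs have the higher share in L151, such as 3.29% against 0.787% of the oligodendrocyte lineage, and OPC-COP the higher share in WT.

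Within OPC-COP the libraries were close to each other. L151 OPC-COP had 0.908 times the median UMIs, 0.969 times the median genes and 0.933 times the median mitochondrial percentage of WT OPC-COP, and all 39 lay within the WT range of UMIs and genes. Mature oligodendrocytes had ratios of 0.896 for UMIs and 0.938 for genes. For OPCs the ratio was 0.877 for UMIs (0.637 to 2.53 from the intervals of both medians) and 0.809 for genes (0.593 to 1.97). With means in place of medians they were 1.58 and 1.19, and without the deepest L151 OPC that ratio of mean UMIs was 1.11. The ratio of median mitochondrial percentage was 2.84 in OPCs, with a wide interval of 0.660 to 8.97 that rests on 5 WT cells. It was 4.50 with at least 500 genes, 6.49 with at least 1000 UMIs (9 L151 and 2 WT cells) and 1.84 with at most 10% mitochondrial content. The last filter acts on the quantity compared and removes only L151 OPCs, so that it could not raise the ratio. Without the deepest L151 OPC the ratio was 3.49.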

How the data were processed

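Single cells of the dissected ventral hippocampus were dissociated with papain and captured with the 10x Genomics 3′ v3 system. The submitters' processing notes name Cell Ranger 3.0.2, Seurat 3.1.3 and mm10. The authors counted UMIs, removed doublets with scran, blood cells and droplets outside 320 to 5000 genes or above 25% mitochondrial content, and clustered the cells. The deposited counts of UMIs and genes per cell are not normalized. The deposited percent of mitochondrial UMIs refers to all UMIs of a cell, and multiplied by them it gave whole numbers in all 8477 cells, within 1e-06. The deposited doublet score has no stated scale. All cells and the authors' class names were used as deposited, with 1 library per genotype. Unused columns with values of samples numbered 0.

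Medians, quartiles and shares were computed with scipy 1.17.1, numpy 2.4.6 and pandas 2.3.3 in Python 3.11.15. Plots were made in matplotlib 3.10.9. Shares have exact Clopper-Pearson 95% intervals, and a ratio of shares was bounded by converting such an interval for the portion of its cells found in L151. Medians were bounded by binomial order statistics (for the 5 WT OPCs, their whole range), and a ratio or difference of medians by the outer combinations of these bounds. The intervals of shares, of ratios of shares and of single medians were tested on simulated data, the last not for 5 cells. The outer combinations were not tested. An upper limit for 0 cells is 3 cells of the total. Counts of single genes were not analysed, and the genes named are the markers of these classes and Adcy2, as background. The classes, markers and settings were chosen with earlier results of these data known, and the windows of UMIs and the bins of genes after the values were seen. Alternatives were minimums of 500 genes or 1000 UMIs, a maximum of 10% mitochondrial content, means in place of medians and other denominators. A ratio or difference counted as reversed when it crossed the point of no difference. Any other value counted as moved when it left the interval of the reported value. For ratios and differences of medians this interval is that of the outer combinations, and otherwise it is the exact binomial one. No sequence is shown, since none carries a result.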

Additional observations from a re-analysis of the deposited data

How the results depend on the processing

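Of 92 recomputed values, 29 were identical to the reported one, among them the medians of OPC-COP under every filter, which these cells all pass. Of the other 63, 52 kept their direction and stayed within the interval of the reported value, which is wide for OPCs. These 52 include the L151 difference and the L151/WT ratio of mitochondrial percentage in OPCs with at most 10% mitochondrial content. That filter acts on the quantity compared. The OPC percentage of both classes in L151, 37.1% as reported, was 18.8% with at least 1000 UMIs per cell and 23.5% with at most 10% mitochondrial content. The ratio of UMIs, OPC-COP over OPCs, in L151 was 5.75 with at least 1000 UMIs and 5.32 with means. The difference in mitochondrial percentage, OPC-COP minus OPCs, in WT was -0.56 with means. The L151/WT ratio of UMIs in OPCs was 1.02 with at least 500 genes, 1.19 with at least 1000 UMIs (9 and 2 cells), 1.58 with means and 1.11 with means without the OPC of over 2000 UMIs, an alternative chosen after the data were seen. The L151/WT ratio of genes in OPCs was 1.03 with at least 1000 UMIs and 1.19 with means. The means with and without the deepest OPC show what this cell adds. OPC-COP pass every filter, so a filter could not raise the OPC percentage of both classes. Likewise a minimum of UMIs could not raise the ratio of UMIs, OPC-COP over OPCs. For the remaining values the cause was not tested, beyond the fewer cells that a filter keeps. The comparison of classes within a shared range of UMIs was not run: in WT the ranges do not meet, and in L151 1 OPC lies in it. The 5 WT OPCs limit the precision of every OPC value between libraries. No leave-one-out analysis was possible with 1 library per genotype.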

Other observations

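The deepest OPC, an L151 cell with 10371 UMIs, was unlike OPC-COP in its number of genes. It had 3514 genes, whereas the 4 L151 OPC-COP between 9500 and 11500 UMIs had 4083 to 4300 and the 14 WT OPC-COP 3932 to 4380. The 97 L151 oligodendrocytes in this range had 2868 to 3777 genes with a median of 3344, and 9 of them had more genes than this cell. Its doublet score of 0 was found in 7 of the 880 L151 cells with 3000 genes or more, this cell included. The range was chosen after the cell was seen.

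OPCs were 1 of 4 clusters in which every cell had a doublet score of 0. The others were the CA1 neuron cluster Neu_CA1_2 with 348 cells, Endothelial_2 with 142 and the inhibitory neuron cluster GABA_2 with 66, whose median gene numbers were 434, 506.5 and 899.5 beside 604.5 in OPCs. Their L151 part was 76.4% in Neu_CA1_2, 47.9% in Endothelial_2 and 59.1% in GABA_2, beside 82.1% in OPCs. The median mitochondrial content was 0.555% in Neu_CA1_2, 3.90% in Endothelial_2 and 7.08% in GABA_2, beside 8.08% in OPCs, of which 23 of 28 cells are L151.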
